A study of Mus musculus with 4 samples.

Results

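H3K9me3 peaks over the 3 immunoglobulin loci of the mouse were compared between muscle stem cells treated to delete Setdb1 and control cells. A peak was counted to a locus when its midpoint lay in chr12:113258000-116010000 for Igh (the heavy chain), chr6:67555000-70727000 for Igk (the kappa light chain) or chr16:19026000-19261000 for Igl (the lambda light chain), all in mm10. This gave 2153 of the 219212 peaks that the 2 deposited lists hold on the main chromosomes. The Setdb1-deleted list had 1056 of its 113503 peaks in the loci, with 503 in Igh, 524 in Igk and 29 in Igl. The control list had 1097 of its 105709 peaks there, with 454 in Igh, 613 in Igk and 30 in Igl.

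The deleted cells received 4-hydroxytamoxifen and the control cells ethanol, each for 72 h. Both cultures carried loxP-flanked alleles of Setdb1, which encodes an H3K9 methyltransferase, and a tamoxifen-inducible Cre recombinase named after Pax7, a gene of muscle stem cells. The labels write the genotype of the deleted H3K9me3 library as Setdb1lox/lox;Pax7GakaCreERT3 and that of the control one as Setdb1lox/lox;Pax7GakaCreERT2. The cells are labelled as a primary cell line from muscle, and chromatin was cut with micrococcal nuclease without fixation before the mark was precipitated. With a single H3K9me3 library for each condition, no difference has a replicate check and no test could be made.

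Immunoglobulin loci hold arrays of gene segments. In developing B cells a V segment, a D segment in the heavy chain only, and a J segment are joined by the Rag1 and Rag2 recombinase and then expressed with a constant region. In cells of other lineages, muscle stem cells included, the segments stay separate and silent. H3K9me3 is a histone mark of silenced chromatin, commonly found on repeats and on clusters of related genes.

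Promoter sequences that the peaks met in 1 list or both are shown first. Of the 12 promoters of 300 bases that the table (GRCm38.p6, the assembly of mm10) places in the loci, 1 lay under peaks of both lists, 1 under a peak of the deleted list alone, 3 under peaks of the control list alone and 7 under neither. The matching shares over all promoters were not computed, so these counts do not set the loci apart from other promoters. Lower case letters are the 250 bases before the annotated start, and capitals are the 50 bases from it. Gm40899, a long noncoding RNA gene at chr12:114764158-114764457 on the plus strand, overlaps the V segment Ighv1-23 and was covered over 100% of its bases in both lists. Gm46962 at chr6:70220655-70220954 on the minus strand was covered in the deleted list only. Gm38573 at chr6:67721387-67721686 on the minus strand, 0.161 kb from Igkv17-134, and Gm51964 at chr12:115981679-115981978 on the plus strand, 0.544 kb from Ighv1-84, were covered in the control list only. All 4 are long noncoding RNA genes.
Gm40899: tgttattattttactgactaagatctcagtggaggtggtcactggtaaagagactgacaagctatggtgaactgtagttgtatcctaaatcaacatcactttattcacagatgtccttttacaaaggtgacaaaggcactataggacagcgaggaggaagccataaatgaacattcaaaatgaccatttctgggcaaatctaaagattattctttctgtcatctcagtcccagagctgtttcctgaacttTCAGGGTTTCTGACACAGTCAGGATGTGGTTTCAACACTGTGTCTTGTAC
Gm46962: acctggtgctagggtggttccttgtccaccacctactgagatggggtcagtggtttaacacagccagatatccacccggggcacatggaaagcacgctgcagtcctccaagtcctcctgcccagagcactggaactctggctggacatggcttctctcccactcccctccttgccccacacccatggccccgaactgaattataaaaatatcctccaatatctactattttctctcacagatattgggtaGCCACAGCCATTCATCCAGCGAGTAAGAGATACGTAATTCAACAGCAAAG
Gm38573: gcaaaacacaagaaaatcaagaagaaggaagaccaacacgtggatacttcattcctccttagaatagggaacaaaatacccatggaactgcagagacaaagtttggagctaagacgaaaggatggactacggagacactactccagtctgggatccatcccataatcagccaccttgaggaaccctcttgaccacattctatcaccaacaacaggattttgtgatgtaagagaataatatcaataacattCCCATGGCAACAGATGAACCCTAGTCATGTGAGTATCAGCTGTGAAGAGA
Gm51964: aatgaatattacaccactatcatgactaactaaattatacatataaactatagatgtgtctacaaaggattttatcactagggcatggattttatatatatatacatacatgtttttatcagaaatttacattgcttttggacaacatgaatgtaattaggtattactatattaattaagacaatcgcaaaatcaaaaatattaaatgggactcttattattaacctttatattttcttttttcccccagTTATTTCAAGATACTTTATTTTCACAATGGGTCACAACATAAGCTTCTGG
The GC content of the 12 promoters ran from 26.3% (Gm51964) to 51.7% (Gm46962). The median was 42.8%, against 52.7% over all 32851 promoters of the table.

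A pair of microRNA hairpins in Igh was nearly identical in sequence. No longer stretches of the array were compared. Mir7094-1 lies at chr12:114469407-114469466 and Mir7094-2 at chr12:114513635-114513694, both on the minus strand. The first is 0.035 kb from the V segment Ighv1-2 and the second 0.011 kb from Ighv1-5. Capitals mark the mature arms, and the sequences are those of RefSeq.
Mir7094-1: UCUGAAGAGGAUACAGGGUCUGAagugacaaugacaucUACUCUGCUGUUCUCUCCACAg
Mir7094-2: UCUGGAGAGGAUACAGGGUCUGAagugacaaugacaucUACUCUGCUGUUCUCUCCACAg
The hairpins share 59 of 60 positions, the difference from Mir7094-1 to Mir7094-2 being A5G, counted from the 5′ end of the hairpin. A peak of 4694 bp in the deleted list covered Mir7094-1, and no control peak did, the nearest lying 0.648 kb away. Mir7094-2 was under no peak in either list. How reads that match several such copies were placed is not given in the sources used here, so peaks on near-identical segments are uncertain.

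Over the whole genome the lists covered nearly the same share of bases, 4.91% in the deleted list and 4.90% in the control list. Read depth is unknown. The fold enrichment and −log10 q-value of a peak are the authors' values and are used only to describe or rank peaks within a list. Setdb1 itself was covered over 0% of its window in the deleted list and 0.888% in the control list, which does not measure the deletion. Of 24 marker genes of muscle, B, T, macrophage, endothelial and fibro-adipogenic cells, 22 had no peak in their windows in the deleted list and 21 in the control list, and the 8 muscle markers had none in either. Over all 49943 genes 68.9% had no peak in the window in the deleted list and 70.3% in the control list, so peaks of this mark cannot identify the cells.

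All 3 loci were covered more densely than the 3 Mb on either side of them in both lists. The 100 kb just outside the upper end of Igl were denser than Igl itself. They had 30.5% under peaks in the deleted list and 26.3% in the control list. In Igh, peaks of the deleted list lay over 27.8% of the bases (765 kb) and peaks of the control list over 23.0% (633 kb). In Igk the deleted-list peaks took up 19.2% (610 kb) and the control peaks 35.9% (1138 kb). Igl had 19.2% (45.2 kb) under deleted-list peaks and 13.2% (31.0 kb) under control peaks. The deleted list was thus higher by a ratio of 1.21 in Igh and 1.46 in Igl, and lower, at a ratio of 0.536, in Igk.

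The 3 Mb on each side of the loci carried much less of the mark. The flanks of Igh were covered over 3.23% in the deleted list and 2.01% in the control list, so Igh was 8.60 times as densely covered as its flanks in the deleted list and 11.4 times in the control list. The sides were unlike, with 0.663% in the deleted and 0.520% in the control list at lower coordinates. At higher coordinates the flank had 5.81% in the deleted and 3.51% in the control list. The flanks of Igk had 3.01% in the deleted list and 5.58% in the control list, and Igk was 6.38 times as dense in the deleted list and 6.43 times in the control list. For Igl the flanks had 4.01% in the deleted list and 3.53% in the control list, a density ratio of 4.80 in the deleted list and 3.74 in the control list. Protein-coding genes were nearly missing from the loci, with 2 in Igh and 0 in Igk and Igl, although genes of all kinds stood at 91.6 per Mb in Igh, 62.7 in Igk and 72.3 in Igl, against 18.3 per Mb in the genome.

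**Figure D1:**
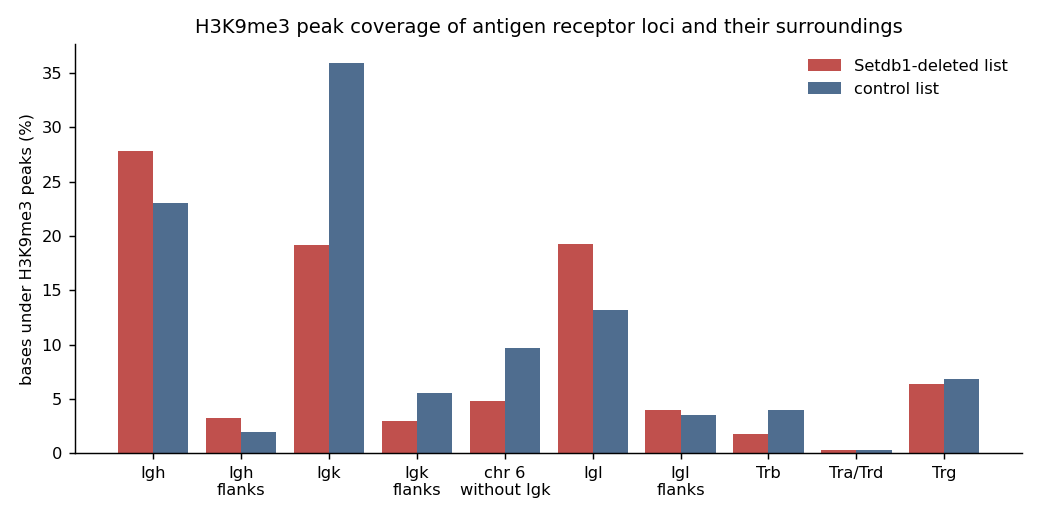
Percent of bases under H3K9me3 peaks in the immunoglobulin loci, their 3 Mb flanks, chromosome 6 without Igk and the T cell receptor loci, with the deleted list in red and the control list in blue (1 library each). Igk is covered over 19.2% in the deleted list and 35.9% in the control list, while Igh and Igl are higher in the deleted list.

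The lower coverage of Igk was matched by its chromosome. Chromosome 6 without Igk was covered over 4.86% in the deleted list and 9.69% in the control list, a ratio of 0.502. The log2 ratio of Igk lay 0.09 above that of the rest of the chromosome and differed from that of its flanks by -0.01. Igk was 3.95 times as dense as the rest of chromosome 6 in the deleted list and 3.70 times in the control list. Igk alone therefore did not stand out in its ratio, whereas it did stand out in its level.

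Cut into 45 stretches of the length of Igk, chromosome 6 gave ratios between 0.336 and 0.897 with a median of 0.519, and 25 stretches had a lower ratio than Igk. No other stretch was covered as densely as Igk in the deleted list, where the highest had 18.3%. In the control list 1 stretch was denser, with 37.8%. What the chromosome as a whole contributed to the difference over Igk was not tested.

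**Figure D2:**
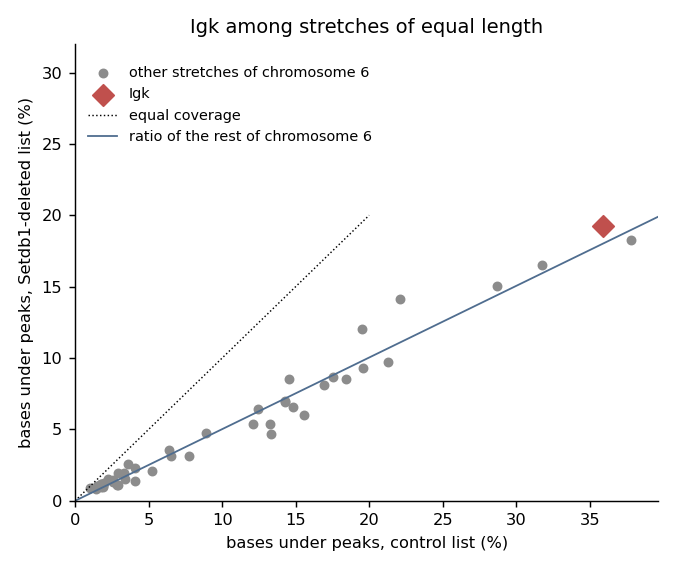
Coverage of Igk (diamond) and of 45 other stretches of chromosome 6 of equal length (dots), with the deleted list on the y axis and the control list on the x axis, both in percent of bases. The stretches lie along the line of the chromosome-wide ratio of 0.502, and Igk, at 19.2% in the deleted list and 35.9% in the control list, lies slightly above it.

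The higher coverage of Igh in the deleted list also lay close to the ratio of its chromosome, and that of Igl did not. Chromosome 12 without Igh was covered over 6.08% in the deleted list and 5.34% in the control list, a ratio of 1.14, and the log2 ratio of Igh lay 0.09 above it. Chromosome 16 without Igl had 3.85% in the deleted list and 3.87% in the control list, a ratio of 0.996, and the log2 ratio of Igl lay 0.55 above it. The flanks of Igh differed more than Igh itself, so the log2 ratio of Igh minus that of its flanks was -0.41, while that of Igl minus its flanks was 0.36. For Igh the value was -0.08 against the flank at lower coordinates alone and -0.46 against the other. Among 848 stretches of 3 Mb over all chromosomes, 3 were denser than Igh in the deleted list and 23 in the control list. For Igk the numbers were 29 in the deleted list and 1 in the control list.

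The direction in Igh and Igl reversed with the q-value threshold but not with the other selections of peaks tried. With fold at or above the list median the log2 ratio was 0.39 in Igh and 0.41 in Igl. With the same number of peaks in both lists it was 0.25 in Igh and 0.45 in Igl. With peaks of −log10 q of 2 or more alone, Igh was covered over 2.54% in the deleted list and 5.59% in the control list, a log2 ratio of -1.14. Igl then had 1.63% in the deleted list and 3.82% in the control list, a log2 ratio of -1.23. Igk kept its direction, with 1.27% in the deleted list and 7.53% in the control list. At the same threshold the whole genome had a log2 ratio of -0.64 and chromosome 6 without Igk one of -2.23. Chromosome 12 without Igh had -0.65 and chromosome 16 without Igl -0.59. The excess of Igh and Igl in the deleted list thus lay in peaks below that threshold. A q-value moves with depth, which is unknown.

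The T cell receptor loci, built from V, D and J segments in the same manner, were covered far less. Tra/Trd on chromosome 14 had 0.302% of its bases under peaks in the deleted list and 0.322% in the control list, close to the rest of chromosome 14, which was sparse at 0.309% in the deleted list and 0.367% in the control list. Trb, which shares chromosome 6 with Igk, had 1.80% in the deleted list and 3.99% in the control list, a ratio of 0.452. Trg had 6.40% in the deleted list and 6.84% in the control list. Of the 136 V segments of Tra/Trd, 134 (98.5%) had no peak within 5 kb in the deleted list and 129 (94.9%) in the control list. For the 35 of Trb the shares were 82.9% in the deleted and 77.1% in the control list. Of the 7 of Trg, 7 had none in the deleted list and 5 in the control list. Over all genes the shares were 68.9% in the deleted and 70.3% in the control list. That over the genes of chromosome 14 is not given here.

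Peaks in Igk were both fewer and narrower in the deleted list. Igk held 165 peaks per Mb in the deleted list and 193 in the control list, with a median width of 879 bp in the deleted list and 1329 bp in the control list. Chromosome 6 without Igk showed the same direction, with widths of 793 bp in the deleted list and 1036 bp in the control list. Igh held 183 peaks per Mb in the deleted list and 165 in the control list, and the widths differed little, at 1076 bp in the deleted and 1004.5 bp in the control list. Igl held 123 peaks per Mb in the deleted list and 128 in the control list, with widths of 973 bp in the deleted and 687 bp in the control list. The genome had 41.7 peaks per Mb in the deleted list and 38.8 in the control list, with widths of 854 bp in the deleted and 904 bp in the control list.

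Joined across gaps of up to 5 kb, the deleted-list peaks of Igk formed 186 blocks, the longest of 47.3 kb at chr6:67646354-67693648. The control peaks formed 109 blocks, the longest of 151 kb at chr6:68460223-68610967. In Igl the deleted list had the longer block, 60.1 kb at chr16:19174684-19234819 over Iglc4, Iglc2 and Iglj2, against 9.88 kb in the control list. In Igh the longest blocks of the lists overlapped, at 74.1 kb (chr12:114750956-114825086) in the deleted list and 67.3 kb (chr12:114777415-114844728) in the control list.

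Most peaks of Igh and Igk met a peak of the other list. In Igh, 37.6% of deleted-list peaks (95% Wilson interval 33.5 to 41.9%, counting error only) and 29.7% of control peaks (25.7 to 34.1%) had no peak of the other list overlapping by 1 bp or more. The same share over all peaks was 49.9% in the deleted list and 47.0% in the control list, and over chromosome 12 it was 50.9% in the deleted and 44.1% in the control list. In Igk, 24.6% of deleted-list peaks (21.1 to 28.5%) and 40.5% of control peaks (36.6 to 44.4%) had no partner, against 33.3% in the deleted and 55.3% in the control list over chromosome 6. In Igl the shares were 62.1% (44.0 to 77.3%) in the deleted list and 60.0% (42.3 to 75.4%) in the control list, against 52.2% in the deleted and 50.3% in the control list over chromosome 16. A list with more or wider peaks offers more partners, so these shares move with coverage.

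Counted in bases, 295 kb of Igh was under peaks of both lists, which is 38.6% of the covered bases of the deleted list and 46.6% of those of the control list. Igk shared 344 kb, which is 56.4% of the deleted list's covered bases there and 30.2% of the control list's. Igl shared 12.5 kb, 27.6% of the deleted list's and 40.2% of the control list's. Peaks with a partner were wider. In Igk their median was 1038 bp in the deleted list and 1762 bp in the control list, against 593 bp in the deleted and 962 bp in the control list for peaks without one.

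Peaks over the loci had ordinary enrichment for their lists. The median fold in Igh was 2.63 in the deleted list and 2.62 in the control list. In Igk it was 2.55 in the deleted and 2.62 in the control list, in Igl 2.57 in the deleted and 2.60 in the control list, and over all peaks 2.59 in the deleted and 2.57 in the control list. Peaks of −log10 q of 2 or more made up 8.95% of the Igh peaks in the deleted list and 21.4% in the control list, 5.34% in the deleted and 21.5% in the control list of the Igk peaks, and 11.5% in the deleted and 18.8% in the control list of all peaks. The loci were thus dense in peaks of moderate enrichment.

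Single peaks stood out within each list. In the deleted list the highest fold in the loci was 3.79, at chr12:115693689-115694208, 1.51 kb from Ighv1-70, and this peak had a control partner. The next in that list was a peak over the V segment Ighv6-4 at chr12:114404217-114406539, with a fold of 3.55. In the control list the peak of highest fold lay at chr6:68661269-68662334, 8.42 kb from Igkv2-95-1, with a fold of 4.24 and a −log10 q of 5.69. It was 1066 bp wide and had a partner of 4068 bp in the deleted list.

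Strong peaks without a partner were found in both lists. In the deleted list these included chr6:70642335-70642589 over Igkv3-6, with a fold of 3.43, and chr12:115098766-115099804, 19.9 kb from Ighv1-50, with a fold of 3.19. In the control list they included chr6:69038420-69039644, 3.33 kb from Igkv4-79, with a fold of 3.41, and chr12:114032663-114032994, 0.808 kb from Ighv3-2, with a fold of 3.30. In Igl the peak of highest fold of the deleted list, chr16:19037239-19041340 (fold 2.89), lay between Iglc1 and the lower end of the locus and overlapped the control peak chr16:19037699-19040824 (fold 3.12). The widest peaks were 10159 bp over Ighv1-30 in the deleted list and 10001 bp at chr6:68575584-68585584 in the control list.

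Every whole 50 kb bin of the 3 loci held peaks in both lists, at uneven coverage. In Igk, 61 of 62 bins were lower in the deleted list. Their coverage ran from 7.33% to 38.2% with a median of 19.1% in the deleted list, and from 10.6% to 56.7% with a median of 38.0% in the control list. In Igh 38 of 54 bins were higher in the deleted list and 16 lower, with medians of 28.1% in the deleted list and 22.6% in the control list. In Igl the deleted list was gathered toward the upper end, with 8.41% of the lower 100 kb and 34.6% of the upper 100 kb under its peaks, against 11.0% of the lower and 15.8% of the upper 100 kb under control peaks.

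When the V part of Igh was cut into 4 equal lengths, coverage was highest next to the D segments and lowest at the far end in both lists. It was 34.9%, 29.9%, 27.6% and 24.2% in the deleted list, and 28.3%, 25.4%, 22.9% and 21.4% in the control list. In Igk, from the far end toward the J segments, the 4 lengths had 22.7%, 18.4%, 18.6% and 17.5% in the deleted list, and 36.3%, 40.6%, 39.0% and 28.3% in the control list. The deleted list was lower in each of the 4, by ratios between 0.454 and 0.625. The D, J and constant part of Igh was sparser than its V part, at 17.4% in the deleted list and 11.5% in the control list.

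**Figure D3:**
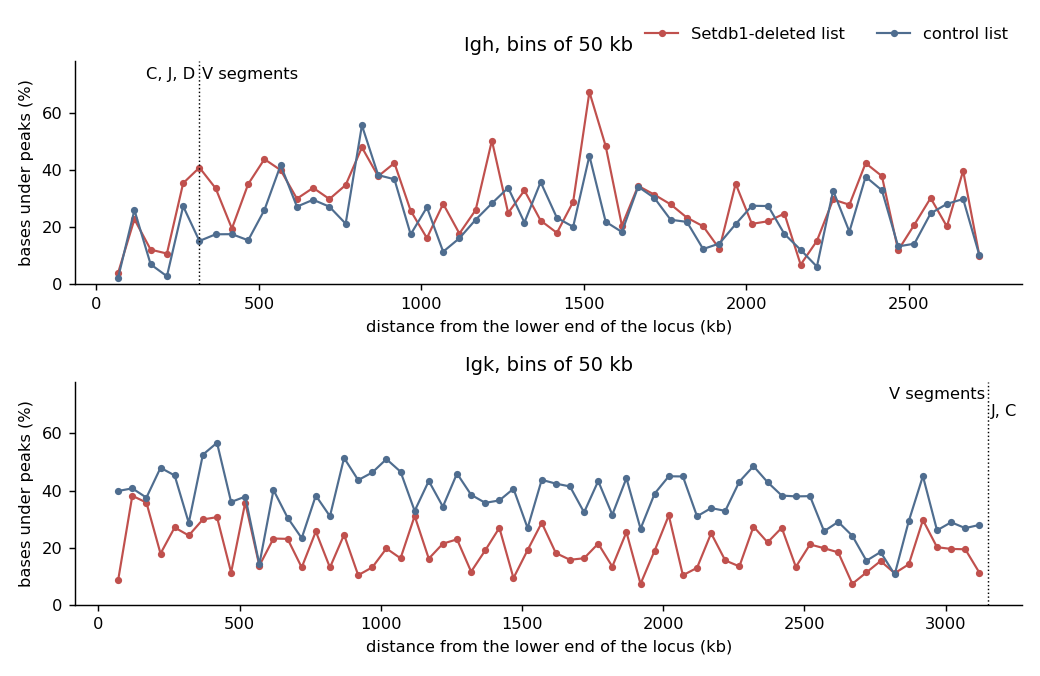
Percent of bases under peaks in 50 kb bins along Igh and Igk, against the distance in kb from the lower end of each locus, with the deleted list in red and the control list in blue. The dotted line parts the V segments from the J and constant (and in Igh D) segments; the control line lies above the deleted line in 61 of 62 bins of Igk.

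At 10 kb, both of the largest differences in Igh lay in the longest block of the deleted list. The bin chr12:114770001-114780000, which holds Ighv1-24, was covered over 88.0% in the deleted list and 9.54% in the control list. The bin at chr12:114810001-114820000, with Ighv1-29 and Ighv1-30, had 74.9% in the deleted list and 12.2% in the control list. The largest difference in the other direction was at chr12:114530001-114540000, with Ighv1-6 and Ighv1-7, at 12.2% in the deleted list and 59.9% in the control list. In Igk, chr6:68200001-68210000 had 0% in the deleted list and 72.3% in the control list, and chr6:69900001-69910000, with Igkv5-39, had 0% in the deleted and 67.9% in the control list. The largest opposite difference in Igk was at chr6:69130001-69140000, with Igkv13-76, at 67.2% in the deleted list and 30.1% in the control list.

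In Igl the largest difference lay in the upper cluster of segments. At chr16:19200001-19210000, which holds Iglj2, coverage was 71.2% in the deleted list and 28.0% in the control list. The largest opposite difference was at chr16:19140001-19150000, with 8.01% in the deleted list and 32.9% in the control list. Of the 23 bins of 10 kb in Igl, 11 were higher in the deleted list, 11 lower and 1 without a peak in either.

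The ends of the loci were marked by a step in coverage at most borders. At the V end of Igk, the 100 kb inside the border had 8.01% in the deleted list and 27.6% in the control list, and the 100 kb outside 3.60% in the deleted and 2.34% in the control list. At the constant end of Igk the inside had 11.1% in the deleted list and 21.6% in the control list, and the outside 0.273% in the deleted and 0.817% in the control list. The nearest peaks inside that border were 2.40 kb away for the deleted list (fold 2.60) and 6.63 kb for the control list (fold 2.68), and the nearest outside 33.1 kb (fold 2.63) in the deleted and 4.12 kb (fold 2.48) in the control list.

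Igh had a quiet constant end, where the first peak began after 67.35 kb for the deleted list and after 55.0 kb for the control list, and 0% in the 100 kb outside in both lists. Beyond it, the nearest deleted-list peak was 814 kb away and the nearest control peak 419 kb. At the V end the step was small, at 20.7% inside and 12.9% outside in the deleted list, and 14.4% and 9.85% in the control list. Igl had no clear step at its upper end, with 34.6% inside and 30.5% outside in the deleted list, and 15.8% and 26.3% in the control list.

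V segments, which encode most of the antigen-binding domain, were examined with 5 kb on either side. Neighbouring windows overlap and share peaks, so segments are not independent. In Igk, 142 of 162 V windows were lower in the deleted list, 19 higher and 1 equal, with a mean coverage of 18.5% in the deleted list and 40.5% in the control list. The windows of 112 segments (69.1%) were lower by 10 percentage points or more and those of 10 (6.17%) higher. Over all 49943 genes these shares were 3.43% lower and 3.75% higher, and over the genes of chromosome 6 15.1% lower and 1.12% higher. A window of an Igk segment was densely covered in the control list and had more to lose in points, which the share does not allow for.

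In Igh the windows were mixed. Of 184 V windows, 110 were higher in the deleted list, 72 lower and 2 equal, with means of 30.4% in the deleted list and 24.98% in the control list. Those higher by 10 points or more numbered 73 (39.7%) and those lower 41 (22.3%). Over all genes the shares were 3.75% higher and 3.43% lower, but densely covered windows such as these have more room to differ in points. With peaks of −log10 q of 2 or more alone, 69 of the 349 V windows of all loci were lower by 10 points and 14 higher, against 154 and 83 with all peaks. The share over all genes was not computed at that threshold.

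**Figure D4:**
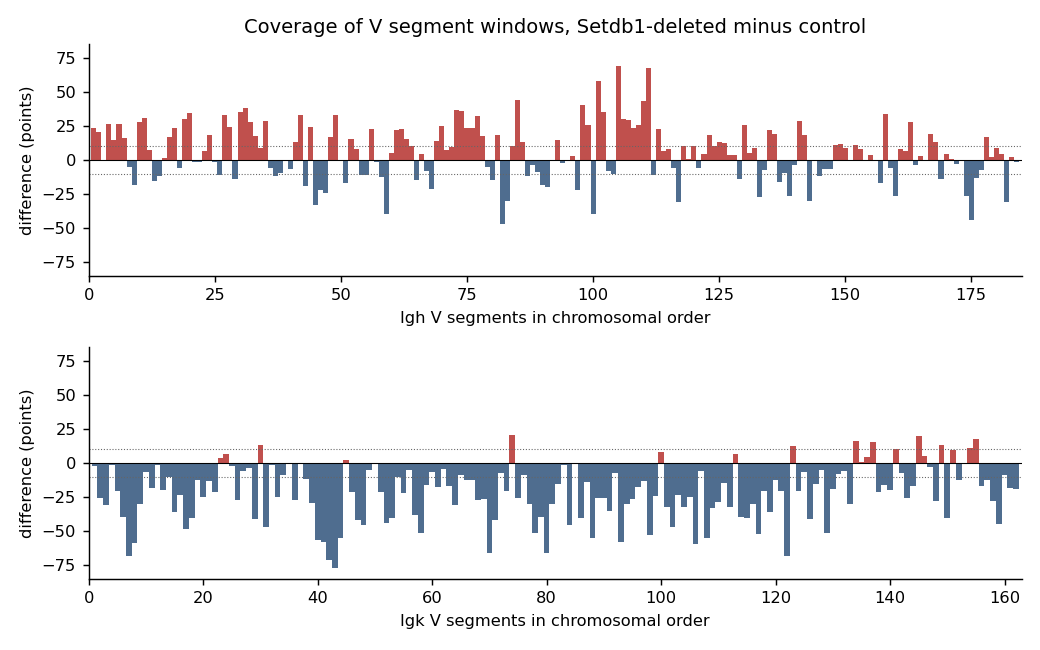
Difference in coverage, deleted minus control in percentage points, of the window of each V segment of Igh (184) and Igk (162) in chromosomal order, red where the deleted list is higher and blue where it is lower; dotted lines mark 10 points. In Igk 142 windows lie below 0, while Igh has 110 above and 72 below.

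V families, named by the number after the locus, follow sequence similarity. All 15 Igk families of 3 or more members had a median window that was lower in the deleted list, by between -3.70 points (Igkv2) and -56.7 points (Igkv15). The 33 members of Igkv4 were all lower, with means of 18.1% in the deleted list and 43.5% in the control list. Igkv15, with 5 members, had 13.1% in the deleted list and 68.5% in the control list, and the 6 members of Igkv5 had 24.03% in the deleted and 61.8% in the control list. Igkv6, with 9 members, was sparse in both lists, at 13.7% in the deleted list and 21.98% in the control list.

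In Igh, 10 of 11 such families had a higher median window in the deleted list and 1, Ighv14, a lower one, by -6.30 points. Ighv7, with 4 members, had 42.5% in the deleted list and 23.7% in the control list, and all 4 were higher. Ighv5, with 21 members near the D segments, had 32.1% in the deleted list and 20.4% in the control list. Ighv1, the largest family with 92 members, was close to even, at 28.4% in the deleted list and 24.8% in the control list, with 54 members higher, 37 lower and 1 equal.

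Single V segments differed most as follows. Igkv15-101, a pseudogene at chr6:68481421-68481718, had 7.00% of its window under peaks in the deleted list and 84.1% in the control list, and its neighbour Igkv15-101-1 had 4.00% in the deleted and 75.1% in the control list. Both lie in the longest control block. Igkv1-132 had 0% in the deleted list and 68.6% in the control list. Igkv5-39 had 7.69% in the deleted list and 75.6% in the control list, and Igkv4-79 had 0% in the deleted and 66.3% in the control list. The segments that were higher in the deleted list differed by less, led by Igkv13-76 with 53.2% in the deleted list and 33.0% in the control list and Igkv6-17 with 33.8% in the deleted and 14.4% in the control list.

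The largest differences in Igh were toward higher coverage in the deleted list. Ighv1-24 at chr12:114772928-114773221 had 77.1% in the deleted list and 8.24% in the control list. Ighv1-30 had 89.2% in the deleted list and 21.6% in the control list, and Ighv1-21-1 had 64.0% in the deleted and 6.11% in the control list. Ighv1-8 had 70.3% in the deleted list and 26.6% in the control list, and Ighv1-29 had 59.9% in the deleted and 17.04% in the control list. Of these 5, all but Ighv1-24 are annotated as pseudogenes, and each was under a peak along its whole length in the deleted list only. Lower in the deleted list were Ighv1-6 with 11.9% against 59.0% in the control list, Ighv1-77 with 22.4% against 66.5%, Ighv13-1 with 0% against 39.8% and Ighv1-20 with 0% against 39.5%.

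The bodies of V segments that are not annotated as pseudogenes were less covered than the V part as a whole, while those of pseudogenes lay nearer to it or above it. In Igk, peaks covered 8.86% of the bases of the 102 segments that are not pseudogenes in the deleted list and 19.0% in the control list, while the whole V part had 19.3% in the deleted and 36.1% in the control list. The 60 pseudogenes had 15.9% in the deleted list and 36.4% in the control list. In Igh the 121 segments that are not pseudogenes had 22.6% in the deleted list and 11.4% in the control list, against 29.1% in the deleted and 24.5% in the control list for the V part. The 63 pseudogenes had 32.8% in the deleted list and 28.9% in the control list.

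Counted as segments met by a peak, the same order was seen in both lists, with intervals that overlapped between the 2 classes in the deleted list and did not in the control list. Segments that share a peak are counted as separate ones. In Igk a peak met 20 of 102 segments (19.6%, 13.1 to 28.4%) in the deleted list and 27 (26.5%, 18.9 to 35.8%) in the control list. Among the pseudogenes it met 16 of 60 (26.7%, 17.1 to 39.0%) in the deleted list and 30 of 60 (37.7 to 62.3%) in the control list. In Igh a peak met 31 of 121 segments (25.6%, 18.7 to 34.1%) in the deleted list and 16 (13.2%, 8.31 to 20.4%) in the control list. Among the pseudogenes it met 25 of 63 (39.7%, 28.5 to 52.0%) in the deleted list and 20 (31.7%, 21.6 to 44.0%) in the control list.

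Around the centres of Igk segments that are not pseudogenes the profile had a dip in both lists. In Igh segments of that class the deleted list was as low at other distances as at the centre. The 60 Igk pseudogenes had 16.3% in the deleted list and 41.2% in the control list at the centre. Their deleted list had 6.90% at 500 bp toward higher coordinates, and their control list 34.4% at 2750 bp toward lower ones. At the centre of Igk segments that are not pseudogenes coverage was 9.01% in the deleted list and 17.2% in the control list. At 1 kb toward lower coordinates it was 17.2% in the deleted list and 40.5% in the control list, and 1 kb toward higher coordinates 12.7% in the deleted and 42.2% in the control list. In Igh segments that are not pseudogenes the centre had 22.9% in the deleted list and 11.0% in the control list. At 1 kb toward lower coordinates Igh had 33.9% in the deleted and 19.9% in the control list, and 1 kb toward higher coordinates 35.4% in the deleted and 29.0% in the control list. Farther out, at 2250 bp toward higher coordinates, Igh was down to 21.0% in the deleted list and had 32.9% in the control list. The windows are not turned by transcription, since the gene table used here gives no strand. The part that reads shared between near-identical segments play in the dip was not tested.

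**Figure D5:**
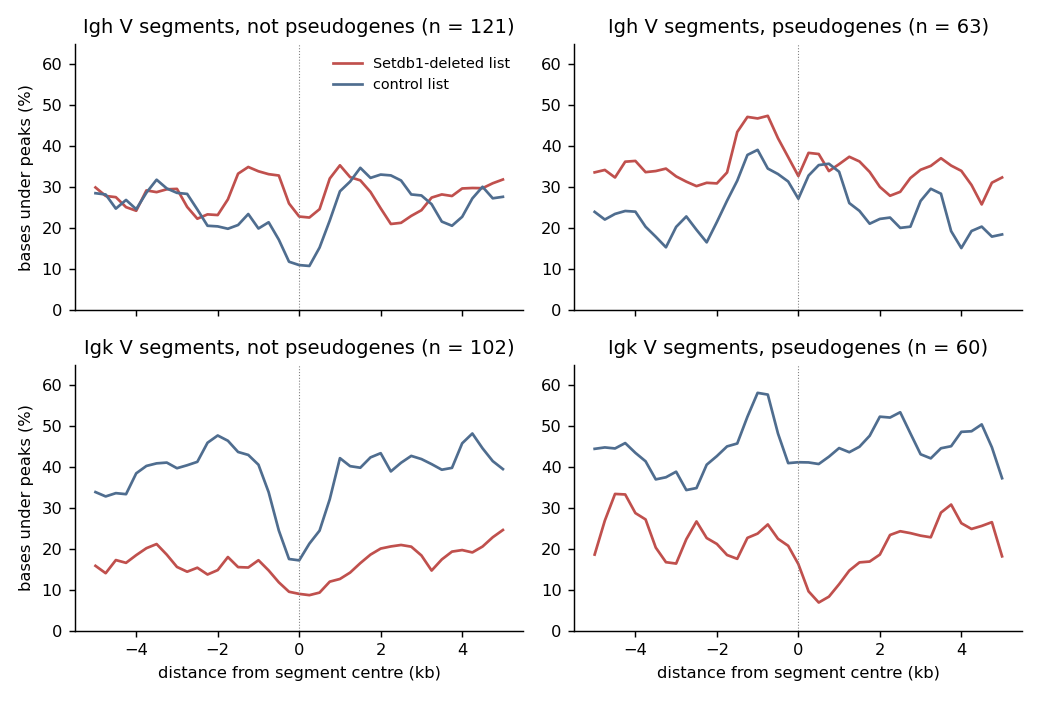
Percent of bases under peaks at each distance from the V segment centre (kb, toward higher coordinates to the right), for Igh and Igk segments that are not pseudogenes and for pseudogenes, with the deleted list in red and the control list in blue. The dip at 0 reaches 9.01% in the deleted list and 17.2% in the control list for Igk segments that are not pseudogenes.

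The D segments of Igh lie between V and J. Their windows (20 segments) were covered on average over 10.1% in the deleted list and 3.69% in the control list. No peak lay in 2 of these windows (10%) in the deleted list and in 14 (70%) in the control list. Over all genes the shares were 68.9% in the deleted list and 70.3% in the control list. Many of the D windows overlap and share peaks. The windows of the 4 J segments were lower in the deleted list. Ighj1 had 3.33% in the deleted list and 19.2% in the control list, and Ighj4 had 4.14% in the deleted and 6.63% in the control list. In Igk the 5 J segments share 1 stretch and had 12.7% in the deleted list and 10.6% in the control list.

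Of the 8 constant region genes of Igh, which set the antibody class, Igha, Ighe, Ighg2c and Ighg2b had windows covered over 0% in both lists. Ighg1, Ighg3 and Ighm had 2.55%, 5.78% and 7.23% in the deleted list and 0% in the control list. Ighd had 11.0% in the deleted list and 2.20% in the control list. Over all genes the mean window had 3.64% in the deleted list and 3.57% in the control list. Igkc, the kappa constant gene, had 7.88% in the deleted list and 4.10% in the control list.

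In Igl, the 5 kb windows of J and constant segments in the upper cluster were far more covered in the deleted list. These windows overlap and share peaks, and Iglj2 itself lay under a peak in the control list only. Iglc2, a lambda constant gene, had 51.1% in the deleted list and 11.3% in the control list, Iglj2 had 59.1% in the deleted and 12.1% in the control list, and the pseudogene Iglc4 had 45.2% in the deleted and 14.3% in the control list. Iglc1, in the lower cluster, had 9.15% in the deleted list and 0% in the control list. The 3 V segments of Igl were sparse, with Iglv1 at 0% in the deleted list and 6.29% in the control list, Iglv2 at 3.49% in the deleted and 13.9% in the control list, and Iglv3 at 8.63% in the deleted and 6.12% in the control list.

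The protein-coding genes of the loci were both in Igh. Adam6b lies among the D segments and Adam6a between the D and V segments, and both encode sperm proteins needed for male fertility in mice. The window of Adam6a was covered over 54.7% in the deleted list and 20.5% in the control list, and that of Adam6b over 15.2% in the deleted and 0% in the control list. Neither promoter was under a peak in either list. The body of Gm40899, whose promoter is printed above, was covered over 76.6% in the deleted list and 28.8% in the control list. Rprl1, an RNase P RNA gene in Igk, was under a peak along its whole length in both lists, and its window had 33.8% in the deleted list and 66.6% in the control list.

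Of 34 genes outside the loci that act in B cells, 24 (70.6%) had no peak in their windows in the deleted list and 21 (61.8%) in the control list, near the share over all genes in the deleted list and below it in the control list. Their mean coverage was 0.656% in the deleted and 0.754% in the control list, under the means over all genes. None differed by 10 points or more, 4 were higher and 11 lower in the deleted list. Ikzf3, a transcription factor of B cells, had 6.49% in the deleted list and 2.10% in the control list. Rag1 had 1.41% in the deleted list and 0% in the control list, and Rag2, Vpreb1 and Igll1, the last 2 being parts of the surrogate light chain, had 0% in both lists.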

How the data were processed

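H3K9me3 was profiled by native chromatin immunoprecipitation in 1 deleted and 1 control culture, with chromatin of 8 µg of DNA each. Input libraries were not used here. The tools and build named, per the submitters' processing notes, were BWA 0.7.17-r1188, MACS2, ChIPseeker 1.30.3 and mm10. How MACS2 was set, which version it was, and whether inputs or pooled reads entered are not given in the sources used here. The deposited broad peak lists hold the authors' score, fold enrichment (a linear ratio), −log10 p-value and −log10 q-value per peak. Every peak had a −log10 q of at least 1.00. The peak names carry another replicate number than the labels, so lists were assigned by condition. The suffix of the Cre name differs between the labels.

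Covered percent is the share of bases under peaks of a list, from Python 3.11.15 with pandas 2.3.3, numpy 2.4.6 and statsmodels 0.14.6, plotted with matplotlib 3.10.9. Peaks on unplaced scaffolds (185 in the deleted list, 155 in the control list) were set aside. A partner is a peak of the other list overlapping by 1 bp. Segments came from RefSeq symbols on GRCm38.p6, a table without strand or exons, with windows of 5 kb on each side. Chromosome lengths were taken as the end of the last peak or gene. As a check of the arithmetic, all control peaks touching the windows of 200 of 49943 genes were removed. The losses were found in all 200, which the removal fixed in advance. The check therefore does not measure noise or false calls. With 1 library per group, no test was made, and Wilson intervals cover counting error only.

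Members, gene lists and rules were chosen with earlier results of these data known. Named were the 3 peaks of highest fold and the widest per locus and list, the 3 highest without a partner, the 5 V segments with the largest difference each way, all J and constant genes, and V families of 3 or more. The text gives the leading ones. Gm40899, Rprl1, the microRNAs and the promoters printed were chosen after their coverage was seen.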

Additional observations from a re-analysis of the deposited data

How the results depend on the processing

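With 18 results, 114 alternative values were computed, of which 51 counted as kept, 51 as moved and 12 changed direction. A log2 value counted as kept when its sign held and it shifted by less than the log2 of 1.5. Small log2 values could thus change much in size and still count as kept. A count was kept within 1.5 times and a share within its interval. At −log10 q of 2 or more the log2 coverage ratio was -1.14 in Igh, -2.57 in Igk and -1.23 in Igl. The ratio minus that of the flanks was -2.01, -0.68 and -1.51, and Igk minus the rest of chromosome 6 was -0.34. Peaks in the deleted minus the control list numbered -52 in Igh, -104 in Igk and -6 in Igl. Peaks without a partner were 80.0% in the deleted list and 90.7% in the control list in Igh, 60.7% in the deleted and 92.4% in the control list in Igk, and 0% in the deleted and 85.7% in the control list in Igl. The Igl shares rest on 1 deleted-list peak and 7 control peaks. V windows past 10 points numbered 69 lower and 14 higher. At −log10 q of 3 or more the log2 ratio was -0.10 in Igh and -3.79 in Igk, Igk minus its flanks 0.19 and minus the rest of its chromosome -1.46. Peak differences were 1, -7 and 0, peaks without a partner 100% in both lists in Igh and 0% in the deleted list and 87.5% in the control list in Igk, and V windows 4 lower and 1 higher. These shares rest on 3 deleted-list and 2 control peaks in Igh, and on 1 and 8 in Igk. Set against all peaks of the other list, 3 and 2 of them in Igh had a partner, and 1 and 6 in Igk. Igl then had no peak, so its ratio and shares had no value. Stricter thresholds leave fewer peaks and fewer possible partners.

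With the same number of peaks in both lists, Igk minus its flanks was 0.089 and the peak differences were 29, -135 and -6. With fold at or above the list median, peaks without a partner were 59.9% in the deleted list and 52.7% in the control list in Igh and 45.7% in the deleted and 69.1% in the control list in Igk, and the peak differences in Igk and Igl were -146 and -4. With peaks joined within 5 kb, which makes fewer and longer ones, Igk minus its flanks was 0.14, the peak differences 4, 77 and -7, and the shares 20.3% in the deleted list and 8.06% in the control list in Igh, 7.53% in the deleted and 16.5% in the control list in Igk, and 40.0% in the deleted list in Igl. Igk minus its flanks was -0.41 with 1 Mb flanks, 0.17 with 10 Mb flanks and -0.23 with fold at or above the list median. An overlap of at least 50% of the peak left 65.8% in the deleted list and 55.3% in the control list without a partner in Igh, and 46.8% in the deleted and 73.1% in the control list in Igk. A partner within 5 kb left 4.57% in the deleted and 1.54% in the control list in Igh, 0.954% in the deleted and 5.55% in the control list in Igk, and 6.90% in the deleted and 23.3% in the control list in Igl. V windows of the segment alone gave 70 lower, and a difference of 20 points 102 lower and 46 higher. For the remaining changes the cause was not tested. No paired analysis was possible because there was only 1 library per condition, and none could be left out. Depth is unknown and limits what an absent peak shows.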
